A study of Mus musculus with 17 samples.

Results

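The transcripts of 9 genes of the transforming growth factor beta (TGF-beta) pathway were followed in distant mouse tumors after cryoablation of a tumor on the opposite flank. These were the ligand genes Tgfb1, Tgfb2 and Tgfb3, the receptor genes Tgfbr1, Tgfbr2 and Tgfbr3, the transducer genes Smad2 and Smad3, and the target gene Tgfbi, taken by symbol from the 21931 genes of the deposited table, and all 9 were found. MC38, a mouse colon cancer line, had been implanted subcutaneously on both sides of wild-type C57BL/6J mice aged 6-8 weeks, and the mice were randomized into a control and a cryoablation group. On day 7 a tumor on 1 side was frozen through a cryoprobe in 2 freezing cycles in the cryoablation group. The tumor on the other side, which was not frozen, was taken 5 days later for bulk RNA sequencing, and the labels give 9 control and 8 cryoablation tumors. The text of the study gives these group sizes the other way round, and the labels, with which the columns of the table match, were followed. All tumors of both groups came from this 1 cell line.

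TGF-beta is secreted in a latent form bound to its own propeptide and must be released before it binds. The active ligand is bound by the type II receptor, which then phosphorylates the type I receptor, and the type I receptor phosphorylates the SMAD2 and SMAD3 proteins that carry the signal to the nucleus. In tumors the pathway is known for matrix production by fibroblasts and for restraint of T cells. Much of its control is exerted on proteins, and transcript levels do not show whether latent ligand was released or SMAD proteins were phosphorylated.

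Promoter sequences are shown for Tgfb1, Tgfbr1 and Smad3, whose levels varied together or in opposite directions between tumors, and for Tgfbi, the most abundant of the 9 transcripts. They are the 250 bases before and 50 bases after the transcription start in RefSeq on assembly GRCm38.p6, where 6 of the 9 genes were matched (Tgfb1, Tgfb2, Tgfbr1, Tgfbr2, Smad3 and Tgfbi). Capitals mark the SMAD box CAGAC, the AP-1 motif TGANTCA and the GC box GGGCGG, each searched on both strands, so that GTCTG and CCGCCC are the same motifs read from the other strand.
Tgfb1, chr7:25686752-25687051, plus strand: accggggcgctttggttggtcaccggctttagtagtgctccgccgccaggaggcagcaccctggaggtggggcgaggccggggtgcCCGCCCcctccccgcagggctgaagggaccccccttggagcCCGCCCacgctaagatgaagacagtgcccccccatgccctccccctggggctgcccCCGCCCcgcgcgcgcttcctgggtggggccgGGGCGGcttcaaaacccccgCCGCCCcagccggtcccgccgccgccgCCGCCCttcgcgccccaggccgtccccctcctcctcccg
Tgfbr1, chr4:47352972-47353271, plus strand: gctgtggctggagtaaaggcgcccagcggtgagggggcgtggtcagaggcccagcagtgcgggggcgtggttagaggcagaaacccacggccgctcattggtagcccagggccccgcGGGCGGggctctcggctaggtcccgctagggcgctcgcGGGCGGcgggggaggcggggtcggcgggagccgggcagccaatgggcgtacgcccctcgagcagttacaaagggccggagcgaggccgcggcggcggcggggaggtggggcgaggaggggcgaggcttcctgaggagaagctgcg
Smad3, chr9:63757945-63758244, minus strand: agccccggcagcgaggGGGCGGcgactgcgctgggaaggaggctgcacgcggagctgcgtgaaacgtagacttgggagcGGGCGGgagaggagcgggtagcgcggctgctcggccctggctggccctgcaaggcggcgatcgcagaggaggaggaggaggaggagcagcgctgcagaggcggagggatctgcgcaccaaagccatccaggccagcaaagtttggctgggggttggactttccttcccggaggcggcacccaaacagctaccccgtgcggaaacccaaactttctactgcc
Tgfbi, chr13:56609336-56609635, plus strand: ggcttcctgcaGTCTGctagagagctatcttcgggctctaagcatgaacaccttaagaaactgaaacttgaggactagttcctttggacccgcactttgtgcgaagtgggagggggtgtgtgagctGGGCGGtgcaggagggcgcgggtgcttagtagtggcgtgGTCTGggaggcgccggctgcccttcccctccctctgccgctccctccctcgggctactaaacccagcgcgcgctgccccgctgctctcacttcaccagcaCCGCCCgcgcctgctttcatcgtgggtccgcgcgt
The Tgfb1 sequence held 6 GC boxes, and those of Tgfbr1 and Smad3 held 2 each, with no SMAD box or AP-1 motif in these windows. Tgfbr1 has a further window (chr4:47385966-47386265, not shown), with 1 SMAD box and no GC box. The Tgfbi sequence held 2 SMAD boxes and 2 GC boxes. Such matches are common, since 49.6% of 32851 promoter windows held CAGAC, 35.7% held GGGCGG and 7.81% held TGANTCA. The GC content of the windows was 77.0% for Tgfb1, 74.7% for Tgfbr1, 67.7% for Smad3 and 63.3% for Tgfbi.

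The 17 libraries held 13524899 to 17898672 counted reads, and 13005 genes passed the filter on low counts, all 9 pathway genes among them. The labels tie no library to a mouse, and the p-values below measure the spread between these tumors. Cryoablation tumors 2, 4 and 5 stood apart from the rest on the first principal component, which held 64.0% of the variance (-25.5, -31.5 and -31.3, against -9.52 to 16.7 in the other tumors). The same 3 libraries had the lowest slopes over gene length, at -0.301, -0.268 and -0.391 per doubling of length. The slope was fitted to log2 CPM (counts scaled to library size) minus each gene's mean over the 17 tumors. A negative slope thus means relatively fewer reads on long than on short genes, compared with the average library. The slope was -0.168 to 0.231 in the other tumors, lowest in control tumors 5 and 1. Values without these 3 cryoablation tumors are therefore given beside the group comparison. The 7 epithelial markers expected of a colon carcinoma varied widely between tumors. They summed to 16.5 to 96.4 CPM in control and 10.4 to 214 CPM in cryoablation tumors. Cdx2 was at 0 in all 17 tumors and Vil1 did not pass the filter, while Krt19 reached 91.6, Krt8 58.8 and Krt18 54.8 CPM. The labels describe the MC38 cells as mesenchymal.

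Among the 9 genes, the target Tgfbi was by far the most abundant and the ligand Tgfb2 the rarest. Levels were compared between genes as RPKM, the CPM on TMM-scaled library sizes divided by gene length in kilobases, over all 17 tumors. Tgfbi, which encodes a matrix protein named for its induction by TGF-beta, had a median of 172 RPKM and exceeded 98.35% of the tested genes. Tgfb1, the main ligand gene of immune cells, followed at 21.1 RPKM and Tgfbr2, the ligand-binding type II receptor gene, at 13.4 RPKM. Smad3 (8.44 RPKM), Tgfb3 (8.38 RPKM), Smad2 (7.78 RPKM), Tgfbr1 (7.66 RPKM) and Tgfbr3 (7.05 RPKM) lay close together. Tgfb2 stood last at 0.617 RPKM, above only 10.7% of the tested genes.

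The steps at both ends of this order were seen in every tumor. Within tumors Tgfbi was 8.03-fold above Tgfb1, Tgfb1 was 1.69-fold above Tgfbr2, Tgfbr2 was 1.66-fold above Smad3, and Tgfbr3 was 11.2-fold above Tgfb2. Each of these 4 steps held in 17 of 17 tumors (exact sign-flip permutation p = 1.53e-05, two-sided and the smallest this test can give, adjusted p = 3.05e-05 over 8 neighbor pairs). The 4 steps between Smad3, Tgfb3, Smad2, Tgfbr1 and Tgfbr3 did not pass the test, with adjusted p between 0.101 and 0.270 in the exact sign-flip permutation test. Smad3, although above Tgfb3 by median, was higher in only 8 of 17 tumors.

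**Figure D1:**
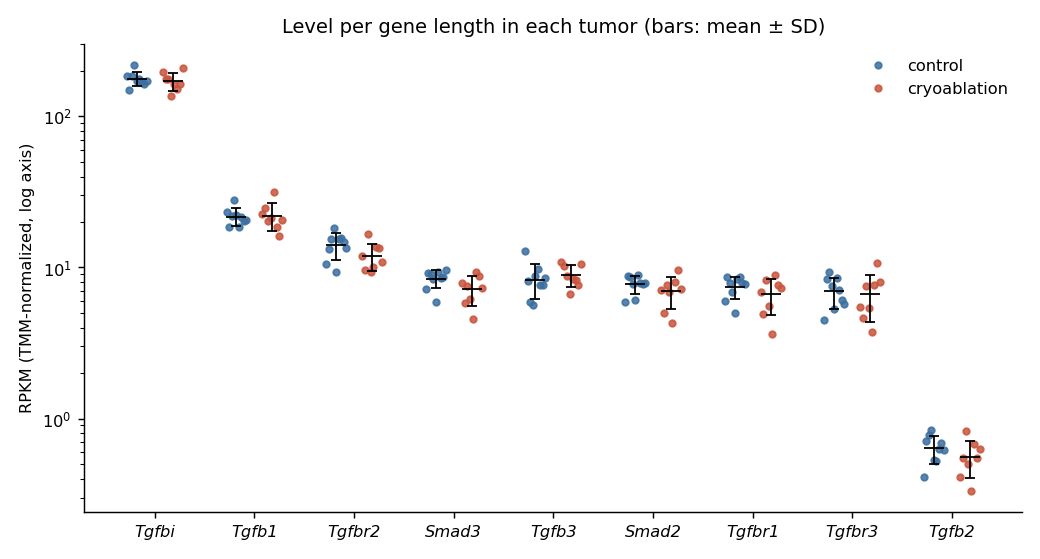
Level of each of the 9 genes in every tumor as TMM-normalized RPKM on a log axis, ordered by the median over 17 tumors; points are tumors (9 control, 8 cryoablation) and bars give the mean and SD of a group. Tgfbi (median 172 RPKM) and Tgfb2 (0.617 RPKM) lie at the ends, and the groups overlap for every gene.

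The ligand transcripts were mostly Tgfb1 in both groups. Of the summed RPKM of the 3 ligand genes, Tgfb1 made up 70.8% ± 5.58 (SD, n = 9) in control and 69.6% ± 4.63 (SD, n = 8) in cryoablation tumors. Tgfb3 made up 27.1% ± 5.92 and 28.6% ± 4.29, and Tgfb2 2.10% ± 0.501 and 1.85% ± 0.648. These shares compare transcripts and not proteins.

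The comparison of cryoablation with control tumors asks whether freezing of a tumor was followed by a change of the pathway at a distant site. No gene of the 9 differed between the groups beyond the spread of the tumors, and the groups overlapped for each of them. The receptor gene Tgfbr2 and the transducer gene Smad3 had the largest differences, lower after cryoablation by log2 fold changes of -0.24 and -0.23, and neither passed the test. In the edgeR quasi-likelihood test 0 of the 9 passed an adjusted p of 0.05, where 0% of the 13005 genes did so in either direction. At an unadjusted p under 0.05 again 0 of 9 were called by edgeR and 0 by DESeq2, against 3.74% of all genes higher and 1.17% lower after cryoablation in edgeR. The study's own threshold joins a log2 fold change beyond 1 in either direction with a raw p below 0.05, and it was met by 0 of 9 and by 0.492% of all genes (46 higher and 18 lower, or 17 and 22 with the trend over gene length removed).

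The 3 ligand genes showed no common direction. Tgfb1 (ENSMUSG00000002603, listed at chromosome 7, 25386427 to 25404502) ranged from 93.2 to 142 CPM in control tumors with a median of 109 CPM. In cryoablation tumors it ranged from 81.4 to 159 CPM with a median of 105 CPM. Both the highest value (cryoablation tumor 5) and the lowest (cryoablation tumor 7) were found after cryoablation, and the control range lay within that of the cryoablation tumors. The log2 fold change was 0.02 (SE 0.12, 95% interval -0.23 to 0.26, edgeR adjusted p = 0.954), and the exact permutation test of log2 CPM gave p = 0.972.

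Tgfb2 (ENSMUSG00000039239, chromosome 1, 186354989 to 186438186), an isoform best known from development, was low with 20 to 89 reads a tumor. It ranged from 2.39 to 4.85 CPM (median 3.62) in control and from 1.93 to 4.80 CPM (median 3.19) in cryoablation tumors. The ranges overlapped almost fully, and only cryoablation tumors 5 and 1 lay below the control tumors, the latter by a small margin. This gave a log2 fold change of -0.18 (SE 0.19, 95% interval -0.57 to 0.21, edgeR adjusted p = 0.771).

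Tgfb3 (ENSMUSG00000021253, chromosome 12, 86103519 to 86125815), an isoform expressed largely by mesenchymal cells, went the other way. It ranged from 19.0 to 43.5 CPM (median 27.5) in control and from 22.5 to 36.6 CPM (median 29.0) in cryoablation tumors. All cryoablation tumors lay within the control range, 6 of them in its upper part beyond the median. Its log2 fold change was 0.10 (SE 0.15, 95% interval -0.21 to 0.41, edgeR adjusted p = 0.812). The span of Tgfb3 overlaps that of Ttll5 on the opposite strand in the table, and since no strand setting was given in the sources used here, reads of the overlap could belong to either gene.

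The 3 receptor genes had negative differences, none of which passed the test. Tgfbr2 (ENSMUSG00000032440, chromosome 9, 115913361 to 116004428) ranged from 76.8 to 150.3 CPM (median 121) in control tumors. It ranged from 76.8 to 136 CPM (median 92.8) in cryoablation tumors, and 7 of the 8 were under the median of the controls. Control tumor 5 was nevertheless as low as the lowest cryoablation tumor. The log2 fold change was -0.24 (SE 0.14, 95% interval -0.53 to 0.06, edgeR p = 0.107, adjusted p = 0.728), and the exact permutation test gave p = 0.122.

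Tgfbr1 (ENSMUSG00000007613, chromosome 4, 47353222 to 47414931), the type I receptor kinase gene, ranged from 32.5 to 56.3 CPM (median 51.3) in control and from 23.7 to 58.7 CPM (median 46.4) in cryoablation tumors. The lowest levels were in cryoablation tumors 5 and 2, and the highest was also in a cryoablation tumor. The log2 fold change was -0.16 (SE 0.16, 95% interval -0.50 to 0.17, edgeR adjusted p = 0.765). Tgfbr3 (ENSMUSG00000029287, chromosome 5, 107254436 to 107437495) encodes betaglycan, a coreceptor that presents ligand, above all TGF-beta 2, to the type II receptor. It ranged from 29.4 to 61.1 CPM (median 46.1) in control and from 24.5 to 70.4 CPM (median 42.7) in cryoablation tumors. Here the cryoablation tumors held both extremes, and they were split evenly by the median of the controls. Its log2 fold change was -0.06 (SE 0.19, 95% interval -0.46 to 0.34, edgeR adjusted p = 0.905).

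Both transducer genes were somewhat lower after cryoablation, without passing the test. Smad3 (ENSMUSG00000032402, chromosome 9, 63554049 to 63665276) ranged from 32.9 to 53.4 CPM (median 48.2) in control and from 25.4 to 51.5 CPM (median 41.0) in cryoablation tumors. Cryoablation tumors 5 and 2 were the only tumors below the control range, and 6 of 8 were under its median. The difference came to a log2 fold change of -0.23 (SE 0.13, 95% interval -0.51 to 0.04, edgeR p = 0.0944, adjusted p = 0.728), and the exact permutation test gave p = 0.0836.

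Smad2 (ENSMUSG00000024563, chromosome 18, 76374651 to 76444034) ranged from 52.1 to 78.2 CPM (median 68.9) in control and from 37.7 to 83.9 CPM (median 62.7) in cryoablation tumors. The same cryoablation tumors 5 and 2 were lowest, while cryoablation tumor 7 was the highest of all. Its log2 fold change was -0.15 (SE 0.14, 95% interval -0.44 to 0.13, edgeR adjusted p = 0.752). Tgfbi (ENSMUSG00000035493, chromosome 13, 56757336 to 56787375) had the smallest spread of the 9 genes. It ranged from 564 to 823 CPM (median 650.0) in control and from 512 to 784 CPM (median 642) in cryoablation tumors, with 4 of 8 on each side of the control median. The log2 fold change was -0.04 (SE 0.10, 95% interval -0.25 to 0.16, edgeR adjusted p = 0.871).

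The small differences depended on whether the 3 cryoablation libraries that stood apart were included. Without cryoablation tumors 2, 4 and 5 the log2 fold change of Tgfbr2 was -0.09 and that of Smad3 -0.05, less than 1 standard error below 0. That of Tgfbr1 was then 0.06, of Smad2 0.02, of Tgfbr3 0.18 and of Tgfbi 0.01, on the other side of 0, and Tgfb1 went from 0.02 to -0.15. Tgfb3 was at 0.14 and Tgfb2 at -0.05. With the trend over gene length and GC content removed from each of the 17 libraries, Tgfbr2 was at -0.13 and Smad3 at -0.17, and Tgfbr3 lay at 0.02. Under both settings 0 of 9 genes had an unadjusted p under 0.05. A limma voom fit that weights libraries by quality put 3 genes under that threshold, in a fit that put 1312 of all genes there. These were Tgfb3 (log2 fold change 0.31, limma adjusted p = 0.466), Tgfbr2 (-0.25, limma adjusted p = 0.472) and Smad3 (-0.20, limma adjusted p = 0.479).

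**Figure D2:**
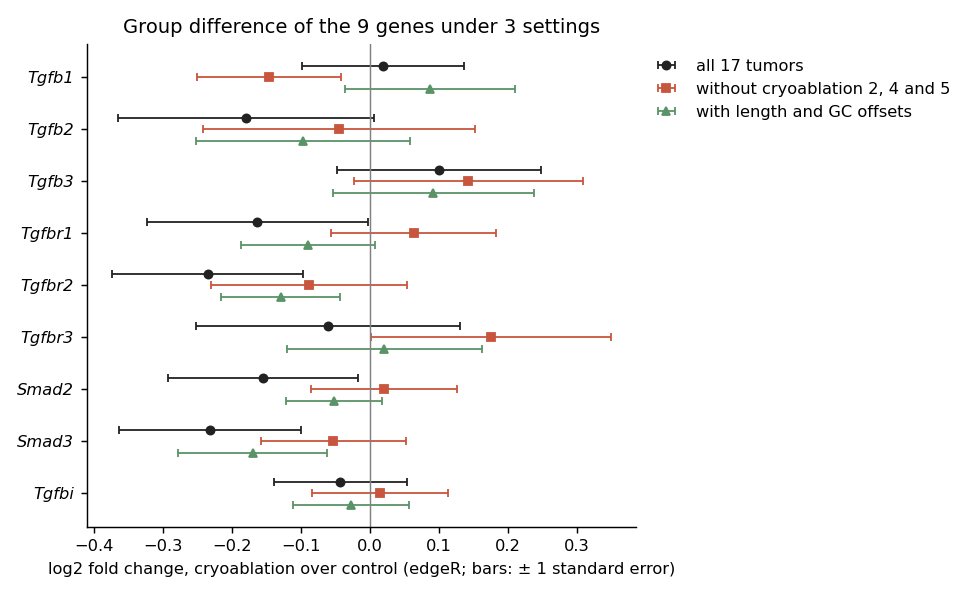
Log2 fold change of cryoablation over control for the 9 genes in edgeR, with bars of 1 standard error, over all 17 tumors, without cryoablation tumors 2, 4 and 5, and with length and GC offsets. All values lie between -0.24 and 0.18, and those of Tgfb1, Tgfbr1, Tgfbr3, Smad2 and Tgfbi change sign without the 3 tumors.

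Ratios within a tumor do not depend on the scaling between libraries, and 6 of them were compared. The log2 ratio of Tgfb2 to Tgfb1 per gene length was -5.10 ± 0.33 in control and -5.30 ± 0.63 in cryoablation tumors (SD), a difference of -0.20 (exact permutation p = 0.425). For Tgfb3 to Tgfb1 the difference was 0.12 (exact permutation p = 0.564), and for Tgfbi to Tgfb1 it was -0.05 (exact permutation p = 0.670). Among the receptors Tgfbr2 exceeded Tgfbr1 by 0.91 ± 0.21 and 0.87 ± 0.29 log2 units, a difference of -0.04 (exact permutation p = 0.755). Tgfbr3 against Tgfbr2 differed by 0.14 (exact permutation p = 0.378), with 7 of 8 cryoablation tumors above the median of the controls. Smad3 and Smad2 were nearly equal, with log2 ratios of 0.12 ± 0.11 and 0.05 ± 0.15 and a difference of -0.07 (exact permutation p = 0.277). All 6 ratios had an adjusted p of 0.755 over the family. Without cryoablation tumors 2, 4 and 5 the difference was 0.0916 for Tgfb2 to Tgfb1 and 0.16 for Tgfbi to Tgfb1, both turned in sign.

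**Figure D3:**
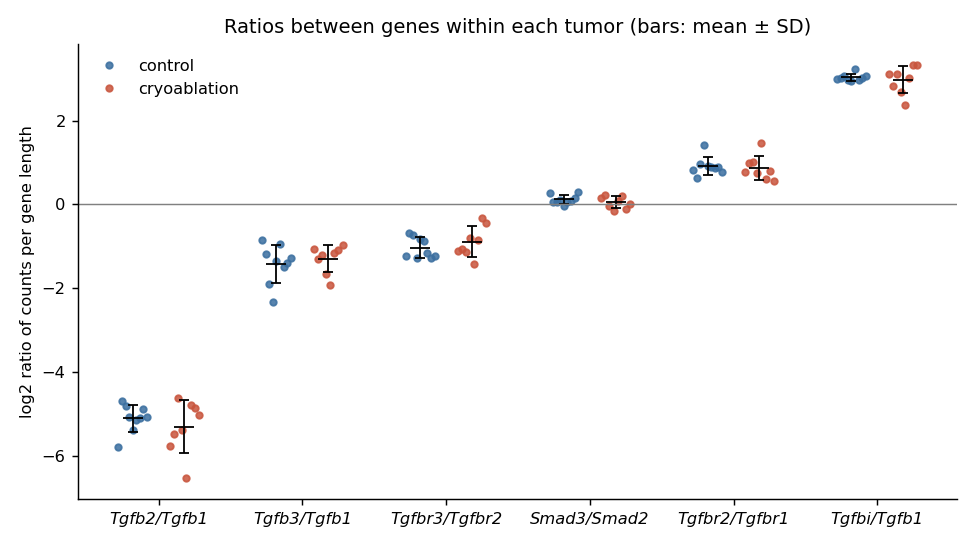
Log2 ratio of counts per gene length between pairs of the 9 genes within each tumor; points are tumors and bars give the mean and SD of 9 control and 8 cryoablation tumors. The balance of ligands, receptors and transducers overlaps between the groups for all 6 pairs, with Tgfb2 to Tgfb1 near -5.10 and Tgfbi to Tgfb1 near 3.03 in control tumors.

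The levels of Tgfbr1, Tgfbr2, Tgfbr3, Smad2 and Smad3 rose and fell together over the 17 tumors. Tgfb2 rose with each of them (r = 0.608 to 0.704), and Tgfb1 went against Tgfbr1, Tgfbr3, Smad2 and Smad3. No pair with Tgfbi passed, and Tgfb3 passed only with Tgfb2, in the opposite direction. Of 36 pairs, 20 passed an adjusted p of 0.05 for Pearson's r of log2 CPM and 17 for Spearman's rho (100000 permutations). The weakest of the 20 had an r of 0.536 in size, a value reached by 37.8% of all pairs of the 13005 tested genes. The closest pair was Tgfbr1 with Smad3 (r = 0.941, rho = 0.814, permutation p = 1e-05, the smallest these permutations can give, adjusted p = 0.00012). Smad2 with Smad3 had r = 0.910 and rho = 0.885, and Tgfbr3 with Smad2 had r = 0.899 and rho = 0.902, with the same permutation p. Tgfb1 was opposed to Smad2 (r = -0.769, rho = -0.750, permutation p = 0.00051, adjusted p = 0.00204) and to Tgfbr1 (r = -0.726, rho = -0.728, permutation p = 0.00118, adjusted p = 0.00386). The opposition of Tgfb1 to Smad2 had r = -0.964 in the 8 cryoablation tumors (exact permutation p = 0.000124) and r = -0.426 in the 9 control tumors (exact permutation p = 0.255), and the difference between the groups was not tested.

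This pattern moved with the length trend of the libraries. The level of 7 of the 9 genes was related to the slope of log2 CPM over gene length, at an adjusted p of 0.05 over 13 such relations. The weakest of the 7 had r = 0.630, and 56.1% of the 13005 tested genes had an r with the slope of at least that size, so the relation is not particular to these genes. The relation was positive for Tgfbr1 (r = 0.936, rho = 0.855), Smad2 (r = 0.929, rho = 0.936), Smad3 (r = 0.921, rho = 0.850), Tgfbr3 (r = 0.876, rho = 0.885), Tgfbr2 (r = 0.771, rho = 0.689) and Tgfb2 (r = 0.630, rho = 0.549). It was negative for Tgfb1 (r = -0.745, rho = -0.819). The permutation p was at most 0.00649 for r, and the adjusted p at most 0.0121. Without the 2 tumors farthest from the median slope (cryoablation 2 and 5), r was 0.889 for Tgfbr1, 0.869 for Smad2 and -0.558 for Tgfb1, but 0.490 for Tgfb2 (permutation p = 0.0643), which no longer passed. Tgfb3 (r = -0.205, permutation p = 0.428) and Tgfbi (r = 0.057, permutation p = 0.828) showed no such relation. The lengths listed in the table were 3383 bases for Tgfb3 and 3771 for Tgfbi, the shortest of the 9, and 5042 for Tgfb1 to 8781 for Smad2 in the others.

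**Figure D4:**
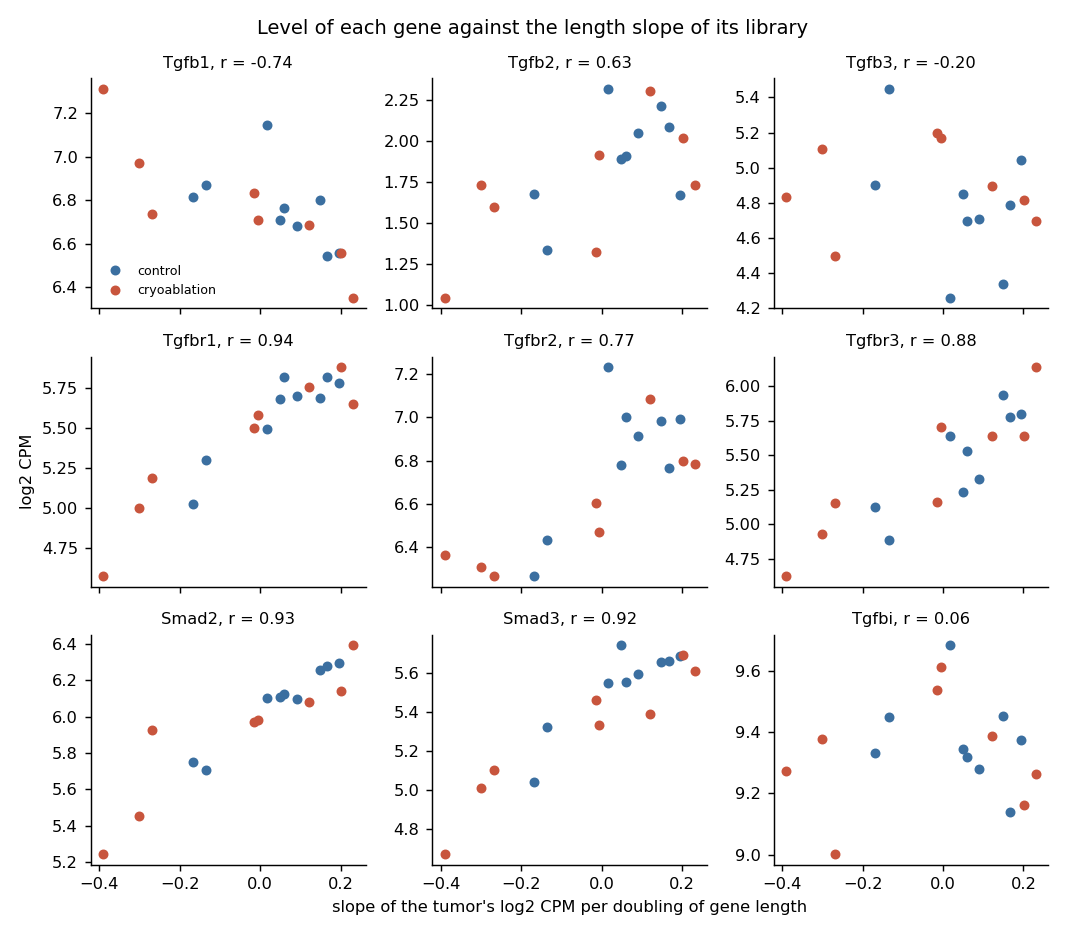
Level of each gene in log2 CPM against the slope per doubling of gene length in the same library, for 9 control and 8 cryoablation tumors, with Pearson's r. The slope is that of log2 CPM relative to each gene's mean over the tumors. Tgfbr1, Smad2 and Smad3 climb with the slope (r = 0.936, 0.929 and 0.921), Tgfb1 falls, and Tgfb3 and Tgfbi show no trend.

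By r, the relation to the slope was close within both groups for Tgfbr1, Smad2, Smad3 and Tgfbr3. In the 9 control tumors r was 0.913 for Tgfbr1, 0.977 for Smad2 and 0.882 for Smad3, and in the 8 cryoablation tumors it was 0.940, 0.905 and 0.949 (exact permutation p at most 0.00231). Tgfbr3 had r = 0.847 and 0.910 (exact permutation p = 0.00338 and 0.00126), and Tgfbr2 had r = 0.715 and 0.842 (exact permutation p = 0.0318 and 0.0114) with a rho of only 0.367 in control tumors. For Tgfb1 it was -0.538 in control (exact permutation p = 0.138) and -0.864 in cryoablation tumors (exact permutation p = 0.00117). When each library's trend over length and GC content was removed, 6 of the 36 pairs passed an adjusted p of 0.05, and all 6 were among the 20 above. That is close to the background, since 17.3% of all gene pairs then had an r at least as large as the weakest of the 6 (0.653). Tgfb1 was again opposed to Smad3 (r = -0.803, rho = -0.752, adjusted permutation p = 0.00252), to Tgfbr1 (r = -0.756, rho = -0.701, adjusted permutation p = 0.00528) and to Tgfbr3 (r = -0.706, rho = -0.630, adjusted permutation p = 0.00943). Tgfbr1 with Smad3 (r = 0.821), Smad2 with Smad3 (r = 0.722) and Tgfbr3 with Smad2 (r = 0.653) were the others. Tgfbr2 with Smad2, at r = 0.710 before, was at -0.022. With cryoablation tumors 2, 4 and 5 left out and no trend removed, Tgfb1 had r = -0.357 with Smad3 (permutation p = 0.210) and r = -0.494 with Tgfbr1 (permutation p = 0.0822).

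**Figure D5:**
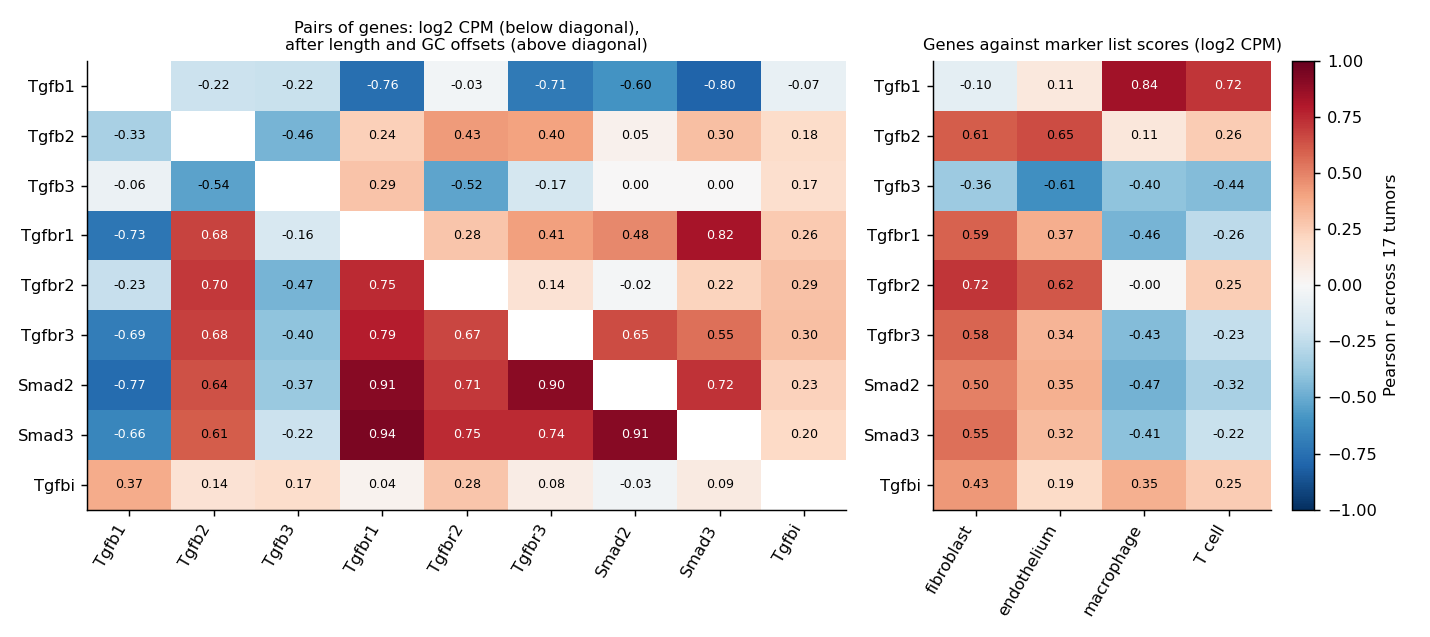
Pearson's r across the 17 tumors between pairs of the 9 genes in log2 CPM (left panel, below the diagonal), after removal of each library's length and GC trend (above the diagonal), and with the scores of 4 marker lists (right panel). The block of receptor and Smad genes is positive below the diagonal and mostly fades above it. There Tgfbr1 with Smad3 (r = 0.821), Smad2 with Smad3 (0.722) and Tgfbr3 with Smad2 (0.653) remain. Tgfb1 stays negative against Tgfbr1 and Smad3.

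A bulk tumor is a mixture of cells, and fewer cells of a type cannot be told apart from less RNA per cell. Markers of fibroblasts, endothelium, macrophages and T cells were therefore set beside the 9 genes. Summed over its 8 markers, the fibroblast list ranged from 3018 to 4072 CPM in control and from 2459 to 4926 CPM in cryoablation tumors. The macrophage list ranged from 840 to 2376 and from 726 to 3024 CPM, the endothelium list from 94.2 to 202 and from 105 to 157 CPM, and the T cell list, read from 7 of its 8 markers, from 27.6 to 141 and from 21.5 to 103 CPM. No list differed between the groups in the exact permutation test of its mean log2 CPM (adjusted p 0.738 to 0.750 over 9 lists). None of the 31 markers used was at 0 in all tumors.

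Tgfb1 followed the macrophage markers most closely. Its level had r = 0.838 and rho = 0.762 with the macrophage score (permutation p = 3e-05, adjusted p = 0.00108), and r = 0.747 without control tumor 4 and cryoablation tumor 7, the 2 farthest from the median score. Within groups r was 0.901 in control (exact permutation p = 0.00324) and 0.863 in cryoablation tumors (exact permutation p = 0.00427). The macrophage score itself fell with the length slope (r = -0.563, rho = -0.672, permutation p = 0.0179, adjusted p = 0.0291), and after removal of the length and GC trend r between Tgfb1 and the score was 0.490 (adjusted permutation p = 0.156).

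The other relations to markers were weaker. Tgfb1 had r = 0.718 but rho = 0.434 with the T cell score (permutation p = 0.00138, adjusted p = 0.0182), and r = 0.506 without control tumor 4 and cryoablation tumor 7 (permutation p = 0.0565), where the relation no longer passed. It was 0.651 without cryoablation tumors 2, 4 and 5, and within groups 0.528 in control (exact permutation p = 0.148) and 0.870 in cryoablation tumors (exact permutation p = 0.00749). Tgfbr2 had r = 0.715 and rho = 0.748 with the fibroblast score (permutation p = 0.00152, adjusted p = 0.0182), and r = 0.576 without control tumor 5 and cryoablation tumor 4. Tgfb2 had r = 0.649 and rho = 0.669 with the endothelium score (permutation p = 0.00527, adjusted p = 0.0474), and r = 0.503 without control tumors 3 and 4 (permutation p = 0.0556). By r, these 4 of 36 relations passed an adjusted p of 0.05, and 0 did so after removal of the length and GC trend. After that removal the largest r in size was -0.697, for Tgfb3 with the macrophage score (adjusted permutation p = 0.0749). By rho, Tgfb1 with the T cell score did not pass (adjusted permutation p = 0.215), and Tgfb2 with the fibroblast score did (rho = 0.684, r = 0.607, adjusted permutation p = 0.0409 for rho). Tgfb3, Tgfbr1, Tgfbr3, Smad2, Smad3 and Tgfbi had no relation that passed. How many of all tested genes have an r with these scores as large as those that passed was not tested. The relations, that of Tgfb1 to the macrophage score included, are therefore not shown to be particular to the pathway genes.

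Markers of tissues that could be cut out with a subcutaneous tumor were also read. Of 5 platelet markers, a cell type that stores TGF-beta 1, only Itga2b passed the filter, and the list summed to 8.44 to 14.8 CPM in control and 8.13 to 19.7 CPM in cryoablation tumors. Epidermal markers summed to 182 to 444 and 205 to 664 CPM, nearly all of it Krt14 (180 to 439 and 202 to 652 CPM). Krt5 and Krt10 reached at most 4.05 and 7.06 CPM, and Krt1 and Dsg3 did not pass the filter. Skeletal muscle markers summed to 2.38 to 127 and 3.13 to 51.6 CPM, and adipocyte markers to 1.91 to 18.1 and 0.597 to 37.6 CPM. The part of these tissues in the differences of the 9 genes was not tested.

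The wider pathway was followed in 5 lists, and 0 of their 64 tested genes passed an adjusted p of 0.05 in edgeR. Of 11 tested genes for ligand storage and activation 10 had a fold change below 0, with a median log2 fold change of -0.16, against -0.01 over all genes. None had an unadjusted p under 0.05. Nrros, which anchors latent TGF-beta 1 on myeloid cells, had a median of 38.7 CPM in control and 35.5 CPM in cryoablation tumors (log2 fold change -0.34, SE 0.22, adjusted p = 0.728), and without control tumor 4 the value was -0.13. Lrrc32, the anchor on regulatory T cells and platelets, had 14.1 and 11.5 CPM (log2 fold change -0.22, SE 0.16, adjusted p = 0.734). Furin, the protease that cuts the propeptide, had 163 and 152 CPM (log2 fold change -0.22, SE 0.18, adjusted p = 0.739), and its value was 0.0515 without cryoablation tumors 2, 4 and 5.

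The 6 coreceptors and decoys had 2 values above and 4 below 0, with a median of -0.08, and none had an unadjusted p under 0.05. Nrp1, a coreceptor that binds TGF-beta 1 as well as vascular growth factors, had medians of 23.5 and 23.8 CPM in control and cryoablation tumors (log2 fold change 0.27, SE 0.16, adjusted p = 0.728). Bambi, a decoy receptor without a kinase, had 3.47 and 3.35 CPM (log2 fold change -0.26, SE 0.22). Acvr1, a type I receptor of the wider family, had 38.1 and 37.8 CPM (log2 fold change -0.08, SE 0.16). Without cryoablation tumors 2, 4 and 5 the value of Nrp1 was -0.0406 and that of Acvr1 0.15, both turned in sign.

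Among 16 Smad cofactors and inhibitors 13 had a fold change below 0, with a median of -0.09. Smad6, an inhibitory Smad that mainly curbs bone morphogenetic protein signals, had medians of 4.68 and 3.75 CPM (log2 fold change -0.33, SE 0.17, edgeR p = 0.0606, adjusted p = 0.728, exact permutation p = 0.0425), with 1 of 8 cryoablation tumors above the median of the controls. Pmepa1, a feedback inhibitor that is itself induced by TGF-beta, had 149 and 168 CPM (log2 fold change 0.28, SE 0.19), and -0.13 without cryoablation tumors 2, 4 and 5. Tgif1, a corepressor of Smad complexes, had 97.8 and 105 CPM (log2 fold change 0.10, SE 0.07). None of the 16 had an unadjusted p under 0.05 in edgeR.

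Of 22 induced target genes tested, 7 had a fold change above and 15 below 0, with a median of -0.09 against -0.01 over all genes. In edgeR 1 of the 22 had an unadjusted p under 0.05, against 3.74% of all genes higher and 1.17% lower after cryoablation. Over the other fits this count ran from 0 to 4, and that over all genes from 252 to 1388. The 1 gene in edgeR was Timp1, an inhibitor of matrix metalloproteinases. It had a median of 170.0 CPM (114 to 310.0) in control and 188 CPM (120 to 614) in cryoablation tumors. Its log2 fold change was 0.71 (SE 0.33, edgeR p = 0.0479, adjusted p = 0.728), the exact permutation test gave p = 0.191, and without cryoablation tumors 2, 4 and 5 the value was -0.23. Its span overlaps that of Syn1 on the opposite strand, which had at most 131 reads in a tumor. The matrix genes Postn (periostin, log2 fold change -0.33, SE 0.16, adjusted p = 0.728) and Col1a1 (a collagen I chain, -0.58, SE 0.30, adjusted p = 0.728) had values below 0, and Col1a1 was at -0.28 without control tumor 4. Tagln, a smooth muscle gene, had at most 3 reads in any tumor and was not tested, and its span overlaps that of Pcsk7 in the table.

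In the activin branch of the family, 9 of 12 genes were tested. Inha, which encodes the alpha subunit of inhibin, an antagonist of activins, had a median of 11.5 CPM (8.28 to 13.1) in control and 13.6 CPM (11.2 to 21.9) in cryoablation tumors. The groups overlapped, and 7 of 8 cryoablation tumors exceeded the median of the controls. Its log2 fold change was 0.47 (SE 0.15, edgeR p = 0.00681, adjusted p = 0.728), and the exact permutation test gave p = 0.00827. In all 17 fits without 1 tumor the unadjusted p was under 0.05, at values of 0.37 to 0.52, but with the length trend removed it was 0.116 at a value of 0.27. Without cryoablation tumors 2, 4 and 5 the log2 fold change was 0.29. Gdf11 (log2 fold change -0.15, SE 0.15) and the activin receptor gene Acvr2b (-0.19, SE 0.22) did not differ beyond their spread in this test.

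For each of the 9 genes, the tested genes with the most similar rank order across the 17 tumors were read off by Spearman's rho, as a description with no test. Tgfb1 was closest to Hlx (rho = 0.971) and Cotl1 (rho = 0.953), and Tgfb2 to Gbp11 (rho = 0.944) and Cd300lf (rho = 0.941). Tgfb3 was close to Pfkm (rho = 0.877). Tgfbr1 was closest to Mcm9 (rho = 0.949) and Kitl (rho = 0.929), and Tgfbr2 to Dchs1 (rho = 0.946) and Sema7a (rho = 0.941). Tgfbr3 ranked with Slc4a7 (rho = 0.953) and Impact (rho = 0.949), Smad2 with D230025D16Rik (rho = 0.968) and Lmbrd2 (rho = 0.966), and Smad3 with Golga1 (rho = 0.944). Tgfbi had the loosest partners, AI467606 (rho = 0.870) and Ifngr1 (rho = 0.821). After removal of the length and GC trend Ifngr1 was still among the 2 closest genes to Tgfbi (rho = 0.826).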

How the data were processed

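The authors deposited raw read counts per gene and FPKM values for 17 tumors, in a table with gene symbols, positions and lengths. All columns matched a sample label, and 0 were left without one. The FPKM deposited by the authors equal count over length and total count, and served only to check the order of levels. The submitters' processing notes name GRCm38 and mm10, but only 512 of 21827 shared genes, and 1 of the 9, are listed at their GENCODE M21 start and end. Positions are therefore given as the table lists them, with no build. The labels and the study's text also differ in the length of the freezing cycles, which is not printed. The aligner, counter and strand setting were not given in the sources used here. Total counts of 13524899 to 17898672 per tumor set the precision.

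Counts were tested with edgeR 4.0.16 (R 4.3.3; TMM, filterByExpr, quasi-likelihood F test, group as the only term, Benjamini-Hochberg adjustment over 13005 genes). The scripts were tested on simulated data. Log2 CPM used a prior count of 2, and ratios a pseudocount of 0.5. Single values were tested by two-sided exact permutation over 24310 splits (smallest p 4.11e-05), and correlations by 100000 permutations, or exactly within groups. DESeq2 1.42.0, limma 3.58.1 (voom with sample weights), other scalings and filters, offsets, a replicate block and fits without each tumor were alternatives. The offsets for length and GC content (splines with 4 degrees of freedom) and the relation to the length slope were chosen after seeing the data. The 9 genes and all lists were chosen with earlier results of these data known. The text names the 9 genes, the 3 genes with the smallest p in each pathway list with any at an unadjusted p under 0.05, and the 2 closest genes by rho, some of which are not reported here.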

Additional observations from a re-analysis of the deposited data

Results flagged for a closer look

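In 7 of 60 groups of tumors examined, the highest or lowest tumor lay apart from the others by Dixon's criterion, which chance meets in about 1 of 20 groups. Among the ratios of the 9 genes, control tumor 4 had a log2 ratio of Tgfbr2 to Tgfbr1 of 1.41, against 0.63 to 0.975 in the other control tumors. Control tumor 6 had a log2 ratio of Tgfbi to Tgfb1 of 3.24, against 2.94 to 3.07. Control tumor 4 also had 90.8 CPM of Nrros, the myeloid anchor of latent ligand, against 26.4 to 44.6 CPM, and 2.85 CPM of Smad6 against 4.24 to 5.97 CPM. The same tumor had the highest level of Tgfb1, Tgfb2, Tgfbr2 and Tgfbi among the controls. Control tumor 1 had 243 CPM of the feedback inhibitor Pmepa1, against 130 to 167 CPM. Cryoablation tumor 7 had 1.15 CPM of the decoy receptor Bambi, against 2.50 to 4.53 CPM. Cryoablation tumor 2 had 1.03 CPM of Acvr2b, against 1.97 to 3.07 CPM. The levels of the 9 genes met this criterion in neither group.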

How the results depend on the processing

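Across 29 other fits 0 of the 9 genes passed an adjusted p of 0.05, with a smallest adjusted p per gene of 0.465 to 0.740, and Tgfb2, Tgfb3, Tgfbr2 and Smad3 kept their direction in all of them. The cause of the changes that follow was not tested. Without cryoablation tumors 2, 4 and 5 the log2 fold change was -0.15 for Tgfb1, 0.0633 for Tgfbr1, 0.18 for Tgfbr3, 0.0210 for Smad2, 0.0140 for Tgfbi, 0.0515 for Furin, -0.0406 for Nrp1, 0.15 for Acvr1, -0.13 for Pmepa1 and -0.23 for Timp1, and the log2 ratio difference was 0.0916 for Tgfb2 to Tgfb1 and 0.16 for Tgfbi to Tgfb1, each of the opposite sign to that over all tumors. Tgfb1 was at -0.00226 with upper-quartile scaling, Tgfbr3 at 0.0118 with length offsets and at 0.0205 with length and GC offsets, and in voom Tgfbi was at 0.12 and Acvr1 at 0.0283, with 3 of the 9 genes under an unadjusted p of 0.05. With 1 tumor left out, that count ran from 0 to 2 (2 without control tumor 5, 1 without cryoablation tumor 3, 6 or 7). The fold change of Tgfb1 then ran from -0.0727 (without cryoablation tumor 5) to 0.0667, that of Tgfbr3 from -0.20 to 0.0261 (without cryoablation tumor 5), and the ratio difference from -0.10 to 0.0330 (without cryoablation tumor 5) for Tgfbi to Tgfb1 and from -0.12 to 0.0261 (without control tumor 4) for Tgfbr2 to Tgfbr1. The correlation of Tgfb2 with Tgfb3 was 0.0060 in cryoablation tumors, and that of Tgfbr2 with Smad2 was -0.0223 after length and GC offsets.

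Replicate numbers did not pair the tumors: same-numbered tumors correlated at -0.51 to 0.64, and 2 of 8 correlated best with their own number. The replicate block gave a log2 fold change of -0.00315 for Tgfb1 and changed no call among the 9 genes. Over all genes, 639 had an unadjusted p under 0.05, against 1312 in voom, 992 with no filter, 325 without cryoablation tumors 2, 4 and 5, and 252 to 1388 with 1 tumor left out. The threshold of the study called 64, against 432 with no filter, 33 with the block, 39 with length offsets (17 higher and 22 lower), 40 with length and GC offsets, 29 when either was joined with the block, and 34 to 165 with 1 tumor left out. Tgfb2, at 20 to 89 reads a tumor, is the gene most limited by depth.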

Other observations

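Tgfb2 and Tgfb3, ligand genes that share their receptors, ran in opposite directions among the 9 control tumors (r = -0.955, rho = -0.933, exact permutation p = 9.4e-05) but not among the 8 cryoablation tumors (r = 0.006, rho = -0.048, exact permutation p = 0.990). Tgfb3 and Tgfbi showed the reverse, with r = 0.919 (rho = 0.929, exact permutation p = 0.00154) in cryoablation tumors and r = -0.335 (rho = -0.150, exact permutation p = 0.372) in control tumors. Both pairs were picked from 36 after their values were seen, and the difference between the groups was not tested. Over all 17 tumors the pairs had r = -0.536 (rho = -0.505, permutation p = 0.0264, adjusted p = 0.0476) and r = 0.174 (rho = 0.353, permutation p = 0.506, adjusted p = 0.628).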
